A study of Mus musculus with 6 samples.

Results

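Apelin (Apln) and its receptor (Aplnr) were followed across 3 mouse endothelial cell lines. The members were fixed by name, and each was read from the 1 probe set annotated to its symbol alone, so 2 genes of the 19936 measured are described. The pair was chosen by its measured log2 differences between these same lines, and its own values below are therefore a description without a test. The lines were derived from embryonic stem cells and are named by the cadherin they were labelled as expressing: VE-cadherin together with N-cadherin (VE+N), VE-cadherin (VE) or N-cadherin (N). Each line was hybridised on 2 Affymetrix Mouse Gene 1.0 ST arrays, 6 in all. All 3 lines were plated at 50000 cells per square centimetre in DMEM that held 20% FCS, glutamine, penicillin/streptomycin, sodium pyruvate, heparin and endothelial cell growth supplement. They were kept confluent over 72 h and then starved for 18 to 20 h in MCDB medium with 1% BSA. Each cadherin state is represented by a single line, and whether the 2 RNA extractions of a line came from separate cultures is not stated. A difference between lines cannot be told apart from any other difference between these cell populations, and p-values measure the spread between extracts.

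Apelin is a secreted peptide that is cut from a longer precursor, and the short carboxy-terminal forms bind the receptor. Aplnr, also called APJ, is a seven-transmembrane receptor that is related in sequence to the angiotensin receptors. It couples mainly to inhibitory G proteins and is taken up from the surface with beta-arrestins. A second peptide, Apela (also called Elabela or Toddler), acts through the same receptor in the early embryo. In growing vessels of the mouse, apelin is known as a gene of sprouting tip cells, and the receptor is known from veins and sprouting endothelium as well as from early mesoderm.

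The lines carried an endothelial profile. Averaged over 14 endothelial markers, the log2 signal was 10.67 and 10.80 on the VE+N arrays, 10.04 and 10.06 on the VE arrays and 9.81 and 9.82 on the N arrays. The median marker difference was −0.16 log2 units for VE minus N, 0.19 for VE+N minus N and 0.42 for VE+N minus VE. The higher average in VE than in N thus did not hold for the median marker. In the test over all genes explained below, 3 of 14 markers passed as higher in VE than in N and 3 as lower. Over all genes the shares were 8.46% and 6.99%. Cldn5 had the largest difference from N, 3.02 in VE and 5.44 in VE+N. The 7 markers of pluripotent cells had line means between 3.03 and 4.74 in every line, and the measured early mesoderm markers (6 of 7) averaged 4.45 to 4.66 per array. Fibroblast markers (8 genes) averaged 4.51 to 4.67 on the VE+N arrays, 6.88 to 6.90 on the VE arrays and 5.45 to 5.47 on the N arrays. Mural cell markers (9 genes) averaged 4.32 to 4.40, 5.20 to 5.38 and 5.48 to 5.51 in the same order of lines. Cdh2, which encodes N-cadherin, had a mean log2 signal of 6.69 in the VE+N line, 5.86 in the VE line and 7.67 in the N line, and Cdh5, which encodes VE-cadherin, had 7.10, 6.94 and 7.28 with no difference past the test. The lines are therefore called by their labels, and every direction below rests on them.

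The apelin receptor gene was high in both lines labelled with VE-cadherin and low in the N line. Aplnr, on chromosome 2, had log2 signals of 9.87 and 9.54 on the VE+N arrays, 10.31 and 10.16 on the VE arrays and 4.80 and 4.31 on the N arrays. The 4 arrays of the lines labelled with VE-cadherin all lay above the 2 N arrays, with no overlap. The line means were 9.71 ± 0.232 in VE+N, 10.23 ± 0.110 in VE and 4.56 ± 0.348 in N (SD, n = 2 each). The difference was 5.68 log2 units for VE minus N, a fold of 51.2, and 5.15 for VE+N minus N, a fold of 35.6. The distance between the nearest arrays was 5.36 log2 units in the first pair and 4.74 in the second, against an SD over the 2 arrays of at most 0.348 in any line.

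Between the lines labelled with VE-cadherin the receptor differed far less. The VE+N mean lay 0.53 log2 units under the VE mean, a 1.44-fold lower signal, and the nearest arrays of these lines were 0.28 apart. The order of the 3 lines was thus VE, VE+N and N, and no neighbours in that order had overlapping arrays. Arrays that do not overlap were common in this data set. Both VE arrays lay above both N arrays in 26.0% of all genes and below them in 31.2%, both VE+N arrays lay above both N arrays in 27.6%, and both VE+N arrays lay below both VE arrays in 21.0% and above them in 28.6%. The size of the first 2 differences was rarer. Between VE and N 3 genes differed more in either direction, and between VE+N and N 12 genes did, while 1673 genes differed more between VE+N and VE. The median absolute difference over all genes was 0.152 for VE and N, 0.163 for VE+N and N and 0.142 for VE+N and VE. The deposited values hold no detection call, so whether the receptor stood above background in the N line was not examined and the folds against that line are approximate. The endothelial marker average was highest in the VE+N line, and the fibroblast and mural averages were lower in VE+N than in N but, for fibroblast markers, higher in VE than in N; their part in the receptor values was not tested. In these bulk samples, fewer cells with the transcript and less transcript per cell cannot be told apart.

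**Figure D1:**
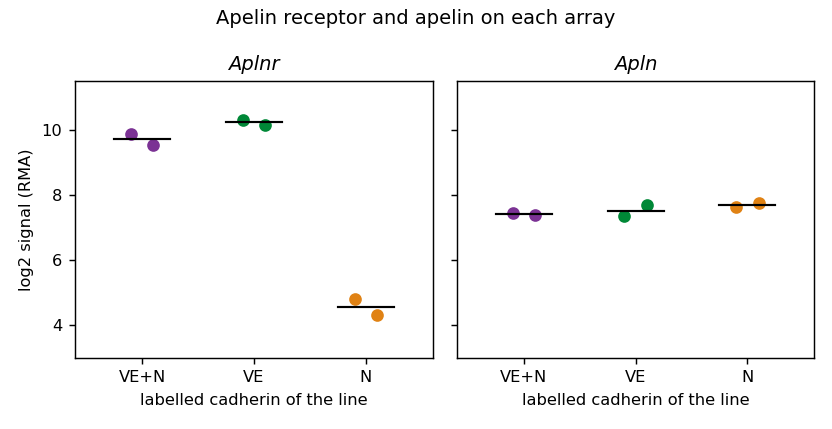
Log2 RMA signal (y axis) of Aplnr and Apln on each array of the VE+N, VE and N lines (x axis); points are arrays and bars are means of 2 arrays, and heights are to be compared within a gene only. Aplnr lay at 9.54 to 10.31 in the lines labelled with VE-cadherin against 4.31 to 4.80 in the N line, while Apln stayed between 7.36 and 7.75 in all 3.

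The ligand gene was nearly level across the lines. Apln, on chromosome X, had log2 signals of 7.44 and 7.40 on the VE+N arrays, 7.36 and 7.68 on the VE arrays and 7.63 and 7.75 on the N arrays. The VE arrays spanned both VE+N arrays and reached into the N arrays, while both VE+N arrays lay under both N arrays, as was the case for 27.5% of all genes. The means were 7.42 ± 0.0258 in VE+N, 7.52 ± 0.225 in VE and 7.69 ± 0.0832 in N (SD, n = 2 each). The difference was −0.17 log2 units for VE minus N, −0.27 for VE+N minus N and −0.10 for VE+N minus VE. The order of the means was N, VE and VE+N, and neither neighbouring pair was separated on all arrays. Of all genes, 45.7% differed more than Apln between VE and N, 31.9% between VE+N and N, and 62.7% between VE+N and VE. A single array set the smallest of these differences: without VE replicate 2 the VE+N minus VE value was 0.06, and without VE replicate 1 it was −0.26. Without VE replicate 1 the VE minus N value was −0.01, and without VE replicate 2 it was −0.33.

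Receptor and ligand thus showed unlike ranges over the same arrays. The SD of the 3 line means was 3.14 log2 units for Aplnr and 0.136 for Apln. The N line had the lowest mean for the receptor and the highest for the ligand.

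The second ligand gene and the measured receptors related to Aplnr showed no rise past the test where Aplnr was high, but all were dim. Removing the dimmest 25% of genes left 4 of these 7 genes, and removing the dimmest 50% left 0. RMA compresses differences of dim genes and no detection call is available, so whether these genes were expressed or level cannot be decided. Apela had log2 signals of 2.56 and 2.33 on the VE+N arrays, 2.60 and 2.27 on the VE arrays and 2.44 and 2.15 on the N arrays, a range no wider between lines than within them. Its adjusted p in limma, a linear model over all 6 arrays with Benjamini-Hochberg adjustment over all genes, was 0.648 for VE minus N, 0.596 for VE+N minus N and 0.983 for VE+N minus VE. Of 7 measured genes in this list of 8, 0 passed adjusted p 0.05 as higher and 1 as lower in VE minus N, the same in VE+N minus N, and 0 in either direction in VE+N minus VE, where 0 also had an unadjusted p under 0.05. Over all genes, 15.4% passed in VE minus N (8.46% higher, 6.99% lower), 19.1% in VE+N minus N (10.2% higher, 8.91% lower) and 10.1% in VE+N minus VE (4.29% higher, 5.84% lower). These shares depend on dim genes: without the dimmest 50% of genes they were 35.4%, 42.3% and 26.1%, and no list is set against other genes by a test. The member called was Bdkrb2, the constitutive bradykinin receptor, with means of 4.75 in VE+N, 4.67 in VE and 5.14 in N and differences of −0.48 ± 0.107 (SE, adjusted p = 0.0204) for VE minus N and −0.39 ± 0.107 (adjusted p = 0.0383) for VE+N minus N. Both calls were lost without N replicate 1 (adjusted p = 0.139 and 0.214) or N replicate 2 (adjusted p = 0.0847 and 0.124), the first also without VE replicate 2 (adjusted p = 0.138), and the second also without VE+N replicate 1 (adjusted p = 0.0927) or VE+N replicate 2 (adjusted p = 0.0921). The angiotensin receptor genes Agtr1a and Agtr2, the inducible bradykinin receptor Bdkrb1, the kappa opioid receptor Oprk1 and the neurotensin receptor Ntsr1 had differences between −0.27 and 0.11 in the 3 comparisons, none past the test.

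Among genes that make or break down the peptide, 1 stood high in a single line. Mme encodes neprilysin, a membrane protease that cleaves apelin and many other peptides. It had log2 signals of 3.20 and 3.10 on the VE+N arrays, 7.43 and 7.95 on the VE arrays and 3.82 and 3.91 on the N arrays. It rose by 3.82 ± 0.163 log2 units in VE against N (adjusted p = 5.11e-06) and fell by 4.54 ± 0.163 in VE+N against VE (adjusted p = 6.16e-06). Its lower signal in VE+N than in N, −0.72 ± 0.163 (adjusted p = 0.0178), was not called without N replicate 1, N replicate 2, VE+N replicate 1 or VE+N replicate 2 (adjusted p = 0.0564, 0.0864, 0.0584 and 0.0995). The fibroblast markers were highest on average in the VE line as well. Of these 8 markers, 6 were called higher and 1 lower in VE than in N, beside 8.46% and 6.99% of all genes. In VE+N against VE 7 of 8 were called lower, beside 5.84% of all genes. Angpt1, Cxcl12 and Vcam1, described below, were highest in the VE line too, and the part of other cell types in these values was not tested.

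The convertases that cut peptide precursors were lower or level in the lines labelled with VE-cadherin. Pcsk6 (PACE4) had 6.29 and 6.12 on the VE+N arrays, 6.24 and 6.05 on the VE arrays and 7.62 and 7.15 on the N arrays. It fell by 1.24 ± 0.164 in VE against N (adjusted p = 0.00162) and by 1.18 ± 0.164 in VE+N against N (adjusted p = 0.0016). Neither difference passed in the methods' analysis of variance of each gene alone with the same adjustment (adjusted p = 0.0922 and 0.0847), which is called the analysis of variance below. Furin, which can cut the apelin precursor, had 9.08 and 8.99 on the VE+N arrays, 9.06 and 8.96 on the VE arrays and 9.60 and 9.52 on the N arrays. It fell by 0.55 ± 0.101 in VE against N and by 0.53 ± 0.101 in VE+N against N (adjusted p = 0.00821 in both), and both calls were lost without N replicate 1 (adjusted p = 0.0751 and 0.0738), the first also without VE replicate 2 (adjusted p = 0.0707). Pcsk1, Pcsk5 and Pcsk7 differed by at most 0.17 in size and passed in no comparison. Of the 6 measured genes of this list of 9, 1 was called higher and 2 lower in VE minus N, 0 and 3 in VE+N minus N, and 0 and 1 in VE+N minus VE, with Mme, Pcsk6 and Furin making up all of these calls. Over all genes, 8.46% and 6.99%, 10.2% and 8.91%, and 4.29% and 5.84% were called higher and lower. With 6 genes measured, a count of 1 cannot be told apart from these shares. The count of 3 in VE+N minus N was 1 without N replicate 1.

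The signalling partners next to the receptor moved in both directions. Arrb1, which encodes beta-arrestin 1, had 11.28 and 11.35 on the VE+N arrays, 11.05 and 10.91 on the VE arrays and 9.49 and 9.44 on the N arrays. It rose by 1.52 ± 0.102 log2 units in VE against N (adjusted p = 5.11e-05) and by 1.85 ± 0.102 in VE+N against N (adjusted p = 1.1e-05). Its relative Arrb2 rose by 0.58 ± 0.108 in VE+N against N (adjusted p = 0.007), a call that was lost without N replicate 1 (adjusted p = 0.0552), and was 0.38 higher in VE than in N without passing (adjusted p = 0.0513). Both arrestin genes were thus higher on average where Aplnr was high.

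Of the inhibitory G protein alpha subunits, Gnai1 had 8.17 and 8.18 on the VE+N arrays, 8.06 and 8.03 on the VE arrays and 9.20 and 9.19 on the N arrays. It fell by 1.15 ± 0.0937 in VE against N (adjusted p = 0.000133) and by 1.02 ± 0.0937 in VE+N against N (adjusted p = 0.000181). Gnai2 had means of 11.91, 11.88 and 12.05 in VE+N, VE and N, Gnai3 had 9.65, 9.73 and 9.97, and neither passed in any comparison. The subunit gene Gna11, whose protein activates phospholipase C, had 10.94 and 10.86 on the VE+N arrays, 10.45 and 10.47 on the VE arrays and 9.64 and 9.66 on the N arrays. It rose by 0.81 ± 0.0962 in VE against N (adjusted p = 0.000941) and by 1.25 ± 0.0962 in VE+N against N (adjusted p = 6.83e-05). The related subunit genes Gnaq and Gna13 passed in no comparison, with differences between −0.15 and 0.27. Grk5, a kinase that phosphorylates active receptors, was lower by 0.75 ± 0.153 in VE than in N (adjusted p = 0.0129) and by 0.54 ± 0.153 in VE+N than in N (adjusted p = 0.0441). Neither Grk5 difference passed in the analysis of variance (adjusted p = 0.163 and 0.24). With only the 4 arrays compared in limma, the second did not pass (adjusted p = 0.0607). The first call was also lost without N replicate 1, N replicate 2 or VE replicate 1, where it was −0.77, −0.73 and −0.62. The second call was lost with any array left out other than VE+N replicate 2.

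In this list of G proteins, arrestins and receptor kinases (23 of 24 measured), 2 genes rose and 3 fell in VE against N, 6 rose and 5 fell in VE+N against N, and 1 rose and 0 fell in VE+N against VE. That is 8.70% higher and 13.0% lower in VE minus N, 26.1% and 21.7% in VE+N minus N, and 4.35% and 0% in VE+N minus VE. Over all genes the shares were 8.46% and 6.99%, 10.2% and 8.91%, and 4.29% and 5.84%. The shares higher in VE minus N and in VE+N minus VE were thus close to those over all genes. The list medians were −0.06, −0.07 and 0.07 log2 units, beside −0.0215, −0.00443 and 0.0294 over all genes. The gene called in VE+N minus VE was Gna11, at 0.44 ± 0.0962 (adjusted p = 0.0244), and leaving out any of the 6 arrays ended that call (adjusted p = 0.0504 to 0.131), while 4 rose with median centring of the arrays. The count of 11 called in VE+N minus N was 4 without N replicate 1, 5 without N replicate 2 and 7 without VE+N replicate 2. The count of 5 in VE minus N was 3 without N replicate 1 or VE replicate 1.

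**Figure D2:**
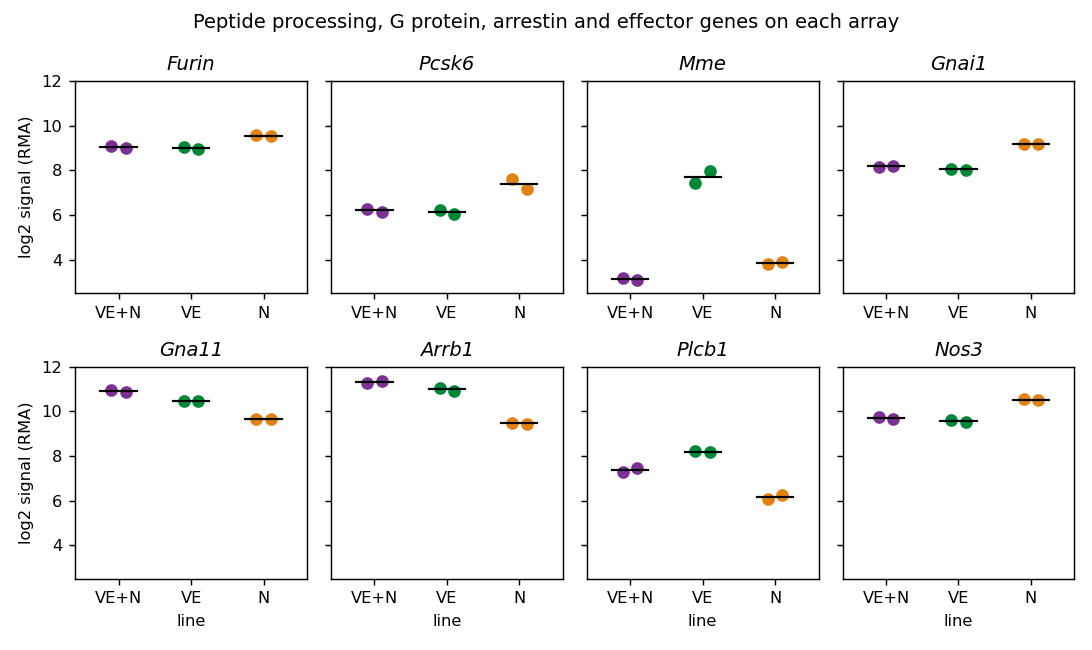
Log2 RMA signal (y axis) of 8 genes of peptide cleavage and receptor signalling on each array of the VE+N, VE and N lines (x axis); points are arrays, bars are means of 2, and heights are to be compared within a gene only. Mme lay at 7.43 and 7.95 in the VE line and under 4 elsewhere, Arrb1 and Gna11 were lowest in the N line, and Pcsk6, Gnai1 and Nos3 were highest there.

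Downstream effectors were called in both directions. Of 39 measured members of 48, 7 rose and 5 fell in VE against N, 9 rose and 9 fell in VE+N against N, and 4 rose and 7 fell in VE+N against VE, with list medians of −0.03, −0.03 and −0.00. The shares over all genes were 8.46% and 6.99%, 10.2% and 8.91%, and 4.29% and 5.84%, and they depend on dim genes as given above. With median centring 6 effectors rose and 5 fell in VE+N against VE. The count of 12 in VE minus N was 6 without VE replicate 1, and the count of 11 in VE+N minus VE was 7 without VE+N replicate 2, 4 without VE replicate 1 and 3 without VE replicate 2. Plcb1, a phospholipase C that answers G proteins, had 7.27 and 7.45 on the VE+N arrays, 8.22 and 8.16 on the VE arrays and 6.08 and 6.27 on the N arrays. It rose by 2.02 ± 0.115 in VE against N (adjusted p = 2.15e-05) and by 1.19 ± 0.115 in VE+N against N (adjusted p = 0.000245), and fell by 0.83 ± 0.115 in VE+N against VE (adjusted p = 0.00307). This is the order of lines seen for Aplnr, though the last difference did not pass in the analysis of variance (adjusted p = 0.0869). Itpr2, an intracellular calcium channel, rose by 0.74 ± 0.12 in VE and by 1.63 ± 0.12 in VE+N against N (adjusted p = 0.00452 and 5.39e-05, the first 0.0833 in the analysis of variance). Akt2, a survival kinase, rose by 0.79 ± 0.1 and 0.85 ± 0.1 (adjusted p = 0.00136 and 0.000678).

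The endothelial genes on which apelin signalling is known to act did not move as 1 group. Nos3, the endothelial nitric oxide synthase, had 9.75 and 9.67 on the VE+N arrays, 9.63 and 9.50 on the VE arrays and 10.53 and 10.51 on the N arrays. It fell by 0.95 ± 0.101 in VE against N (adjusted p = 0.00051) and by 0.81 ± 0.101 in VE+N against N (adjusted p = 0.000891). Klf2, a transcription factor of quiescent endothelium, had 9.05 and 8.80 on the VE+N arrays, 8.38 and 8.19 on the VE arrays and 7.83 and 8.01 on the N arrays. It rose by 1.00 ± 0.13 in VE+N against N (adjusted p = 0.00111), while its 0.36 in VE against N did not pass (adjusted p = 0.112). In the analysis of variance the VE+N difference of Klf2 did not pass either (adjusted p = 0.0589). Its relative Klf4 rose by 0.67 ± 0.115 in VE and by 0.83 ± 0.115 in VE+N against N (adjusted p = 0.00583 and 0.00164). Leaving out VE replicate 1 ended the VE call of Klf4 (adjusted p = 0.0569), and both calls ended in the analysis of variance (adjusted p = 0.0824 and 0.0514). Mef2c, a transcription factor upstream of Klf2, had means of 9.11 in VE+N, 9.49 in VE and 9.93 in N and fell by 0.83 ± 0.0994 in VE+N against N (adjusted p = 0.000745). Its −0.44 in VE against N (adjusted p = 0.0208) was not called with any VE or N array left out (adjusted p = 0.0767 to 0.127). Fgf2 and Fgfr1, which endothelial apelin signalling is known to restrain in lung vessels, did not pass against the N line: Fgf2 differed by 0.28 in VE and −0.30 in VE+N, and Fgfr1 by −0.03 and 0.33.

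Regulators known to act on the apelin gene included rising, falling and level genes. Of 21, all measured, 6 rose and 1 fell in VE against N, 4 rose and 3 fell in VE+N against N, and 2 rose and 4 fell in VE+N against VE, with list medians of 0.09, 0.16 and 0.04. Beside these counts, 8.46% and 6.99%, 10.2% and 8.91%, and 4.29% and 5.84% of all genes rose and fell. The count of 7 in VE minus N was 4 without N replicate 2 or VE replicate 1, that of 7 in VE+N minus N was 3 without N replicate 2 and 4 without N replicate 1 or VE+N replicate 2, and that of 6 in VE+N minus VE was 3 without VE+N replicate 2, VE replicate 1 or VE replicate 2. With median centring 4 rose and 3 fell in VE+N against VE. Hif1a, the oxygen-regulated factor that induces apelin, had means of 10.96 in VE+N, 10.94 in VE and 10.85 in N and passed in no comparison. Epas1, the endothelial relative of Hif1a, had 10.92 and 10.86 on the VE+N arrays, 10.46 and 10.32 on the VE arrays and 9.82 and 9.72 on the N arrays. It rose by 0.62 ± 0.104 in VE against N (adjusted p = 0.00507) and by 1.12 ± 0.104 in VE+N against N (adjusted p = 0.000189), and the first did not pass in the analysis of variance (adjusted p = 0.0519). Foxo1 and Foxo3, forkhead factors that Akt signalling holds out of the nucleus, passed in no comparison, with differences between −0.08 and 0.32.

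Among signals that act on the ligand, Angpt1, whose protein activates the Tie2 receptor and is known to raise apelin, had 3.34 and 3.28 on the VE+N arrays, 5.81 and 5.77 on the VE arrays and 3.91 and 4.40 on the N arrays. It rose by 1.63 ± 0.154 in VE against N (adjusted p = 0.000276) and fell by 2.48 ± 0.154 in VE+N against VE (adjusted p = 6.94e-05), and neither passed in the analysis of variance (adjusted p = 0.054 and 0.057). The Tie2 gene Tek passed in no comparison, with means of 11.31, 10.90 and 11.07 in VE+N, VE and N. Vegfa, an inducer of sprouting, rose by 1.24 ± 0.108 in VE against N (adjusted p = 0.000189) and fell by 0.93 ± 0.108 in VE+N against VE (adjusted p = 0.00139, or 0.0643 in the analysis of variance). The Notch ligand Dll4, which restrains sprouting, had 6.28 and 6.38 on the VE+N arrays, 7.92 and 7.51 on the VE arrays and 9.21 and 9.18 on the N arrays. It fell by 1.48 ± 0.141 in VE against N (adjusted p = 0.000295) and by 2.86 ± 0.141 in VE+N against N (adjusted p = 6.14e-06), and the first did not pass in the analysis of variance (adjusted p = 0.0508). Across these changes Apln itself stayed within 7.36 to 7.75.

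Tip cell genes, the group to which apelin belongs in sprouting vessels, were mostly lower in the lines labelled with VE-cadherin, while Apln was nearly level. Of 19 other tip cell genes, 1 rose and 11 fell in VE against N and 1 rose and 13 fell in VE+N against N, beside 6.99% and 8.91% of all genes that fell. Without the dimmest 50% of genes, 10 and 11 of 16 tip cell genes fell, beside 17.6% and 19.5% of the genes left. In VE+N against VE 1 rose and 5 fell, beside 4.29% and 5.84% of all genes. Without the dimmest 50% of genes, 7 of 16 fell there, beside 11.7% of the genes left. Of all genes, 8.46% rose in VE against N and 10.2% in VE+N against N. The list medians were −0.69, −0.93 and −0.21. Placental growth factor (Pgf) fell by 2.84 ± 0.179 in VE and fell by 3.21 ± 0.179 in VE+N against N (adjusted p = 3.54e-05 and 1.15e-05). Angpt2, an antagonist of Tie2 signalling, differed by −1.50 ± 0.124 and −1.81 ± 0.124 (adjusted p = 0.000145 and 3.7e-05), and Cxcr4, the receptor of Cxcl12, by −2.06 ± 0.131 and −2.10 ± 0.131 (adjusted p = 3.55e-05 and 2.11e-05). Igfbp3, a growth factor binding protein, fell by 4.22 ± 0.280 in VE+N against N (adjusted p = 3.05e-05). Without VE+N replicate 2 or VE replicate 1 the count of 6 in VE+N minus VE was 3.

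The receptor is known from veins, and the venous genes were called in both directions. Of 9 measured venous genes of 10, 2 rose and 2 fell in VE against N, 3 rose and 1 fell in VE+N against N, and 3 rose and 1 fell in VE+N against VE, with medians of 0.04, −0.03 and 0.14. Of all genes, 8.46% and 6.99%, 10.2% and 8.91%, and 4.29% and 5.84% rose and fell in the same comparisons. Nr2f2, the transcription factor that specifies veins, had means of 11.17 ± 0.0781 in VE+N, 10.47 ± 0.0515 in VE and 10.44 ± 0.0169 in N (SD, n = 2 each) and rose by 0.73 ± 0.0992 in VE+N against N (adjusted p = 0.00146), against 0.04 in VE minus N (adjusted p = 0.878). The venous ephrin receptor Ephb4 rose by 0.64 ± 0.102 in VE+N against N (adjusted p = 0.00316) and was at 0.06 in VE minus N (adjusted p = 0.772). Neither gene was thus called in VE against N, where the receptor differed most. The clotting factor gene Vwf rose by 1.41 ± 0.116 in VE and 4.13 ± 0.116 in VE+N against N (adjusted p = 0.000141 and 3.99e-07). The adhesion gene Vcam1 rose by 2.05 ± 0.158 in VE against N (adjusted p = 0.0001). In VE+N it differed by −0.61 from N (adjusted p = 0.0297) and by −2.66 from VE (adjusted p = 5.92e-05). Neither passed in the analysis of variance (adjusted p = 0.214 and 0.0554). The Vcam1 difference between VE+N and N also lost its call with any VE+N or N array left out, at −0.69 to −0.53. Called lower in VE than in N were Icam1 (−0.61 ± 0.117, adjusted p = 0.00982, or 0.101 in the analysis of variance) and Emcn (−0.38 ± 0.0965, adjusted p = 0.0355). The Icam1 call was lost without N replicate 1 (−0.54) or VE replicate 2 (−0.51). The Emcn call was lost with any VE or N array left out, where the difference was −0.42 to −0.33. The count of 4 in VE minus N was 2 without N replicate 1 or VE replicate 2.

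Arterial genes were mostly lower where the receptor was high. Dll4, Cxcr4 and Unc5b belong to the tip cell list as well and were called lower in both comparisons against N. The falls in these lists are therefore not separate results. Of 13, all measured, 0 rose and 8 fell in VE against N, 1 rose and 9 fell in VE+N against N, and 1 rose and 4 fell in VE+N against VE, with medians of −0.89, −0.92 and −0.10. The shares of all genes that fell were 6.99%, 8.91% and 5.84%, and those that rose 8.46%, 10.2% and 4.29%. The Notch target Hey1 differed by −1.24 ± 0.116 in VE and −2.06 ± 0.116 in VE+N against N (adjusted p = 0.000266 and 1.21e-05), and Hey2 by −1.17 ± 0.104 and −1.37 ± 0.104 (adjusted p = 0.000209 and 6.41e-05). Notch4, an endothelial Notch receptor, differed by −1.03 ± 0.118 and −1.56 ± 0.118 (adjusted p = 0.000733 and 6.05e-05). The gene that rose in VE+N was Nrp1, a co-receptor for VEGF and semaphorins, by 0.65 ± 0.102 against N (adjusted p = 0.00295). The count of 5 in VE+N minus VE was 3 without VE+N replicate 2, VE replicate 1 or VE replicate 2.

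Other vascular systems of G protein-coupled receptors were set beside the apelin pair. Of 23 measured genes of 27, 6 rose and 6 fell in VE against N, 6 rose and 7 fell in VE+N against N, and 7 rose and 4 fell in VE+N against VE, with medians of −0.05, −0.22 and −0.03. Among all genes, 8.46% and 6.99%, 10.2% and 8.91%, and 4.29% and 5.84% rose and fell. The receptor Calcrl, which binds adrenomedullin, had 12.22 and 12.46 on the VE+N arrays, 11.79 and 11.79 on the VE arrays and 10.68 and 10.65 on the N arrays and rose by 1.13 ± 0.111 in VE and 1.68 ± 0.111 in VE+N against N (adjusted p = 0.000347 and 3.02e-05). The endothelin receptor gene Ednrb ran the other way, at 10.48 and 10.62 on the VE+N arrays, 10.65 and 10.55 on the VE arrays and 12.04 and 12.07 on the N arrays, and differed by −1.46 ± 0.103 and −1.51 ± 0.103 (adjusted p = 6.58e-05 and 3.64e-05). Ackr3, a scavenger receptor for Cxcl12, rose by 1.93 ± 0.169 in VE+N against N (adjusted p = 0.000141), and Cxcl12 itself rose by 1.90 ± 0.112 in VE against N (adjusted p = 2.46e-05) and fell by 0.99 ± 0.112 in VE+N against N (adjusted p = 0.000543). Of 11 called in VE+N minus VE, 4 were counted without VE+N replicate 2 or VE replicate 1 and 5 without VE replicate 2.

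**Figure D3:**
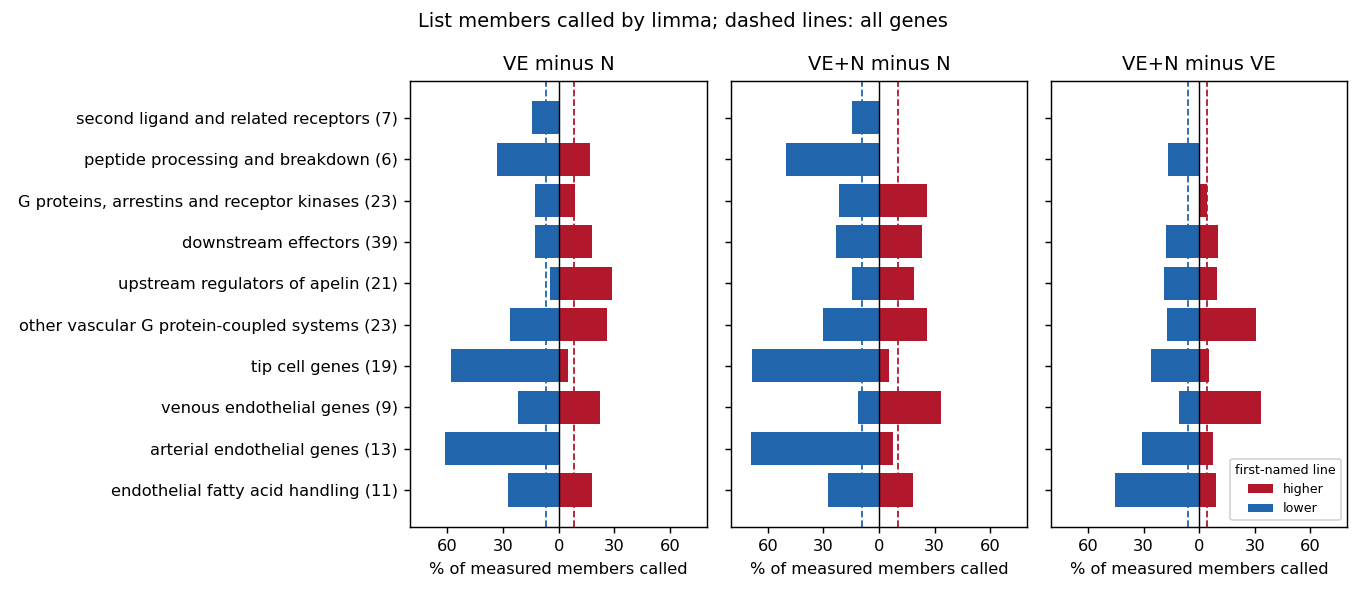
Share of measured members called higher (right of 0) or lower (left of 0) by limma at adjusted p under 0.05 (x axis, percent) in 10 pathway lists (y axis, number measured in brackets) for each comparison; dashed lines give the share over all genes. Tip cell genes were called lower in 57.9% (VE minus N) and 68.4% (VE+N minus N) of 19 cases, and arterial genes in 61.5% and 69.2% of 13. Dll4, Cxcr4 and Unc5b are in both of these lists.

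The gene whose profile lay closest to the receptor's was Fabp4, a fatty acid binding protein of capillary endothelium and fat cells that endothelial apelin signalling is known to restrain in the mouse. Likeness was measured as the root mean square distance between log2 values over the 6 arrays, after each gene's own mean was taken off. Among 18214 genes considered, Fabp4 lay at 0.305 log2 units from Aplnr (r = 0.998), against a median of 2.58. Fabp4 had 10.20 and 10.06 on the VE+N arrays, 10.69 and 10.64 on the VE arrays and 5.56 and 5.53 on the N arrays, the same order of lines as the receptor. Its mean lay 5.12 log2 units higher in VE than in N and 4.58 higher in VE+N than in N. Such differences follow from the choice of genes near Aplnr on these same arrays, so they are a description without a test. The VE+N mean of Fabp4 lay 0.53 under its VE mean.

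The next genes by distance were the hyaluronan scavenger receptor Stab2 (0.545), the creatine synthesis enzyme Gatm (0.551), the inflammatory protease Casp1 (0.648) and Rassf9 (0.809), with r between 0.951 and 0.991. Stab2 had 9.13 and 9.40 on the VE+N arrays, 9.22 and 9.22 on the VE arrays and 4.73 and 4.76 on the N arrays. The low N arrays that these genes share with the receptor follow from their choice by distance. The VE+N mean was above the VE mean in all 4, and below it in Aplnr and Fabp4. In Stab2 it was above by 0.05 log2 units only, and both VE arrays lay between the VE+N arrays. Stab2 thus shows no order of these 2 lines. The VE+N mean lay 0.35 above the VE mean in Gatm and 0.47 in Casp1. Of these 4 differences between VE+N and VE, that of Rassf9 was the largest, at 1.23 log2 units. The likeness rests on 6 arrays of 3 lines.

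For the ligand, which was nearly level, the same measure picks genes that are nearly level too. The nearest were BC051019 (0.0182), Nemp2 (0.0398), Cd300e (0.0443), Cldn1 (0.0454) and the olfactory receptor gene Olfr954 (0.0463), against a median of 0.211 over the genes considered. Their line means differed by at most 0.32 log2 units (Nemp2), as the choice of genes near Apln implies.

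**Figure D4:**
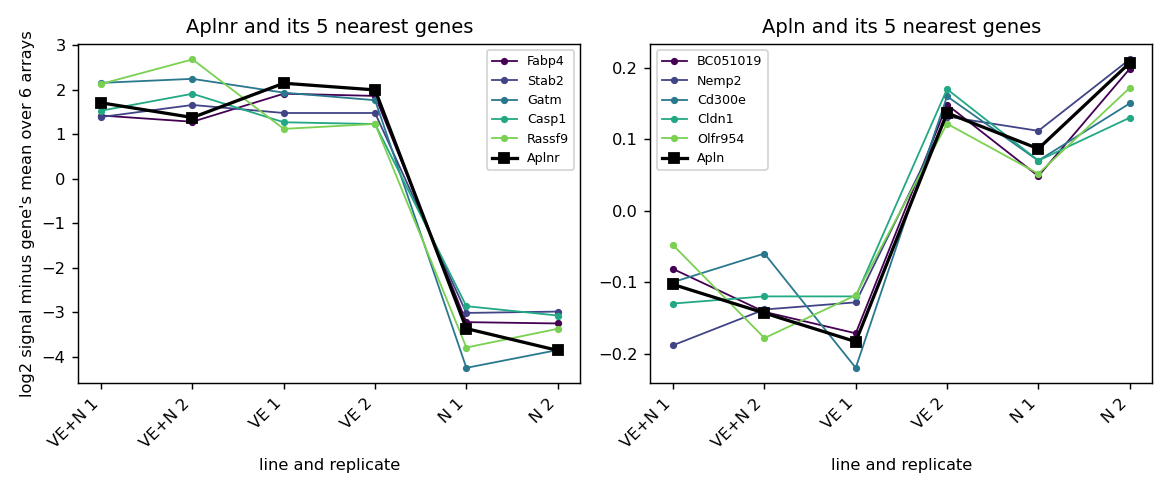
Log2 signal minus the gene's mean over 6 arrays (y axis) on each array (x axis, line and replicate) for Aplnr and Apln (black squares) and the 5 genes nearest to each (coloured points); lines join the arrays of a gene, and the 2 panels have different scales. Fabp4 follows Aplnr at a distance of 0.305 log2 units, and the genes nearest to Apln lie at 0.0182 to 0.0463 from it.

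The genes of endothelial fatty acid handling, Fabp4 among them, were called in both directions. Of 11, all measured, 2 rose and 3 fell in VE against N, 2 rose and 3 fell in VE+N against N, and 1 rose and 5 fell in VE+N against VE, with medians of −0.00, −0.15 and −0.20. Shares over all genes were 8.46% and 6.99%, 10.2% and 8.91%, and 4.29% and 5.84%. Against N the genes that rose were Fabp5 and Fabp4. The latter is also the gene nearest to Aplnr by profile, so its part in both counts of 2 is a description without a test. Fabp5 rose by 2.42 ± 0.149 in VE and 1.68 ± 0.149 in VE+N against N (adjusted p = 3.19e-05 and 0.000153). The fatty acid transporter Cd36 differed by −1.53 ± 0.186 and −3.13 ± 0.186 (adjusted p = 0.00105 and 1.65e-05, the first 0.0872 in the analysis of variance), and Gpihbp1, which anchors lipoprotein lipase to capillaries, by −2.09 ± 0.168 and −2.91 ± 0.168 (adjusted p = 0.000123 and 1.38e-05). In VE+N minus VE the count of 6 was 3 without VE+N replicate 2 or VE replicate 1 and 4 without VE replicate 2.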

How the data were processed

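Per the series' design text the authors used RMA to obtain the deposited log2 values, and Partek 6.3 is listed in the submitters' processing notes. In RMA background is corrected, arrays are brought to common quantiles and probes are summarized per probe set, which compresses differences of dim genes. That the deposited scale is log2 was read from the values, 0.817 to 14.16. Of 35556 probe sets, 21789 carried 1 gene symbol, brought up to date through Entrez identifiers (21698) or accessions (3), or kept (88). For the 1001 genes with several probe sets the one with the highest mean was used. The genome build is not given in the sources used here.

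The lines were compared by linear models (limma 3.58.1, R 4.3.3) on 19936 genes over 6 arrays (3 residual and 4.89 prior degrees of freedom), with Benjamini-Hochberg adjusted p-values, called at 0.05. Values after ± are the SE of a difference, or the SD where stated. The number of arrays limits the precision. The code was tested on simulated data. Members and gene lists were chosen with earlier results of these data known. Genes named are the members, the cadherins, all members of the 2 lists closest to the receptor, a fixed set of partners, up to 4 called genes of each other list with the largest difference, and the 5 nearest by profile. Not every gene that qualifies is printed. Alternatives were the replicate number as a block, only the arrays compared, a trended robust prior, median centring, repeated quantile normalization, removal of the dimmest 25% or 50% of genes, the methods' analysis of variance, a 2-fold limit and each array left out. A mean over probe sets was not run because each member has 1 probe set.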

Additional observations from a re-analysis of the deposited data

How the results depend on the processing

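The Aplnr differences kept their sign in every alternative run: 5.43 to 5.93 for VE minus N, 4.91 to 5.40 for VE+N minus N and −0.69 to −0.36 for VE+N minus VE with 1 array of these lines left out, and 5.57, 5.13 and −0.44 with median centring. Apln ranged from −0.33 to −0.01, −0.33 to −0.21 and −0.26 to 0.06 with 1 array left out, and was −0.28, −0.29 and −0.01 with median centring. A line left with 1 array was assumed to vary like the others. List members called (62, 79 and 47 of 163 in the 3 comparisons) numbered 44 to 63, 55 to 72 and 23 to 42 with 1 array left out, and genes called (3079, 3802 and 2020) numbered 1688 to 3356, 2243 to 3800 and 966 to 2049. With a 2-fold limit added, list members called were 28, 31 and 13 and genes called 760, 918 and 502. In the methods' analysis of variance at an unadjusted p of 0.05 and 2-fold they were 28, 31 and 13, and 751, 909 and 493. Median centring shifted all VE minus N values by −0.108, and the split of genes called there became 1283 higher and 2398 lower, against 1686 and 1393. In VE+N minus VE it became 1533 and 990, against 855 and 1165, and that of list members 27 and 25, against 19 and 28. Of 138 called differences of named genes, 37 lost the call without at least 1 array, 59 in the analysis of variance with Benjamini-Hochberg and 8 in another alternative, and 0 changed sign. Of the differences not called, 22 gained a call in at least 1 alternative. Without the dimmest 25% and 50% of genes the share called was 23.4% and 35.4% for VE minus N, 27.9% and 42.3% for VE+N minus N, and 16.5% and 26.1% for VE+N minus VE, against 15.4%, 19.1% and 10.1% of all genes. Deviations of same-numbered arrays correlated at −0.00504, 0.123 and 0.0689, so the numbers were not taken as pairs. With the replicate block, list members called were 62, 80 and 48, genes called 3056, 3864 and 2055, and 2 called differences of named genes were lost (Egln3 in VE+N minus N, adjusted p = 0.0614, and Mef2c in VE+N minus VE, adjusted p = 0.0539). Signal over background was not available.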

Other observations

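The nearest measured genes on the chromosome were looked at after the receptor's values were seen. Their order was taken from the RefSeq annotation of GRCm38.p6. Of the 4 genes on each side of Aplnr, 0 of 8 passed adjusted p 0.05 in limma in any of the 3 comparisons. Over all genes 15.4% passed in VE minus N, 19.1% in VE+N minus N and 10.1% in VE+N minus VE. With 8 genes, such counts cannot be told apart from those shares. An unadjusted p under 0.05 was found for 1 neighbour in VE minus N, for 3 in VE+N minus N and for 1 in VE+N minus VE. The share of all genes at that unadjusted limit was not counted. Differences lay between −0.08 and 0.27 for VE minus N and between −0.02 and 0.30 for VE+N minus N. The direct neighbours Tnks1bp1 and Lrrc55 had means of 9.17 and 4.47 in VE+N, 9.15 and 4.33 in VE and 8.87 and 4.16 in N.

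Around Apln, Smarca1, a chromatin remodelling ATPase, had means of 2.75 in VE+N, 3.27 in VE and 4.93 in N and fell by 1.66 in VE against N (adjusted p = 0.00247) and by 2.18 in VE+N against N (adjusted p = 0.00046). Zdhhc9 was lower by 0.37 in VE than in N (adjusted p = 0.0401), and the other 6 of 8 neighbours passed in no comparison. Of the 8 neighbours, 2 were thus called in VE minus N and 1 in VE+N minus N, beside 15.4% and 19.1% of all genes.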
